A study of Mus musculus with 16 samples.

Results

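The genes described here are 30 that encode myelin proteins or mark mature oligodendrocytes, the cells that wrap axons of the central nervous system in myelin. They were chosen by symbol from the deposited count table, which holds 53801 genes, and were read in the cortex of 16 mice. Oligodendrocytes mature from dividing precursors and then lay down a multilayered membrane whose compact part is held together by Mbp and related proteins and whose lipid is rich in galactolipids. Several of the members (Qdpr, Car2, Enpp2, Apod, Gsn, Cryab and Ndrg1) are also made by other brain cells. Progranulin, the product of Grn, is a secreted and lysosomal protein, and its loss in mice is known for lysosomal lipid storage and glial activation.

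The study asked what a brain-penetrant form of progranulin made in the liver goes with in the cortex of mice that lack Grn. KO AAV mice (n = 5, 3 males and 2 females) carried the Grn KO genotype and received 300000000000 vg (vector genomes) of AAV-8D3:PGRN by tail vein. That virus is targeted to the liver and encodes human progranulin joined to an antibody fragment against the mouse transferrin receptor. KO saline mice (n = 5, 4 males and 1 female) were Grn KO and received saline, and WT saline mice (n = 6, 3 males and 3 females) were Grn WT and received saline. All mice were C57BL/6, were 12 to 12.93 months old, were perfused before collection and had been treated 8 months earlier. The virus was given to KO mice alone and each animal gave 1 library. The genotype comparison set KO saline over WT saline, the treatment comparison KO AAV over KO saline, and the AAV-to-WT comparison KO AAV over WT saline. The sexes are not balanced between groups, so a fit with sex as a term is among the alternatives.

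Grn had 0 counts in every KO AAV and KO saline library, which allows up to 3 counts each from counting error alone, against 16 to 67 counts in WT saline libraries. Total counts ran from 1351974 to 2119019 per library and averaged 1767668 ± 96838 in KO AAV, 1497797 ± 162617 in KO saline and 1821111 ± 182193 in WT saline (SD). The RNA integrity number was 8 in KO saline replicate 4 and WT saline replicate 3 and at least 9.2 elsewhere. The cortical neuron markers Slc17a7, Tbr1 and Neurod6 were detected in every library. Prx, a Schwann cell gene that marks peripheral myelin, had 0 counts in all libraries. Libraries also differed along 1 main axis within groups: the first principal component of the other genes' log2 levels, taken after removing group means, held 46.2% of that variance over 6195 genes. WT saline replicate 4, KO saline replicate 3 and KO saline replicate 1 stood apart at its low end, with component values of -27.0, -26.3 and -22.2, while the other 13 libraries lay between -7.39 and 20.2. No KO AAV library stood at that end, so results are given below with and without these 3 libraries.

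Summed over all members, the share of RNA in myelin genes overlapped between the groups. The 30 genes took 0.542% ± 0.0729 of the counts in KO AAV, 0.521% ± 0.0323 in KO saline and 0.545% ± 0.0835 in WT saline (SD), and single libraries ran from 0.432% to 0.670%. Mbp alone gave 38.0% of the members' counts, and Qdpr, Mobp, Car2 and Bcas1 gave 10.7%, 8.12%, 7.12% and 5.21%. In bulk tissue, fewer oligodendrocytes and less RNA per oligodendrocyte cannot be told apart. The kit reads about 1 tag at the 3' end of each transcript, so the levels given here, in TMM-scaled CPM (counts relative to the library total), are not divided by length.

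**Figure D1:**
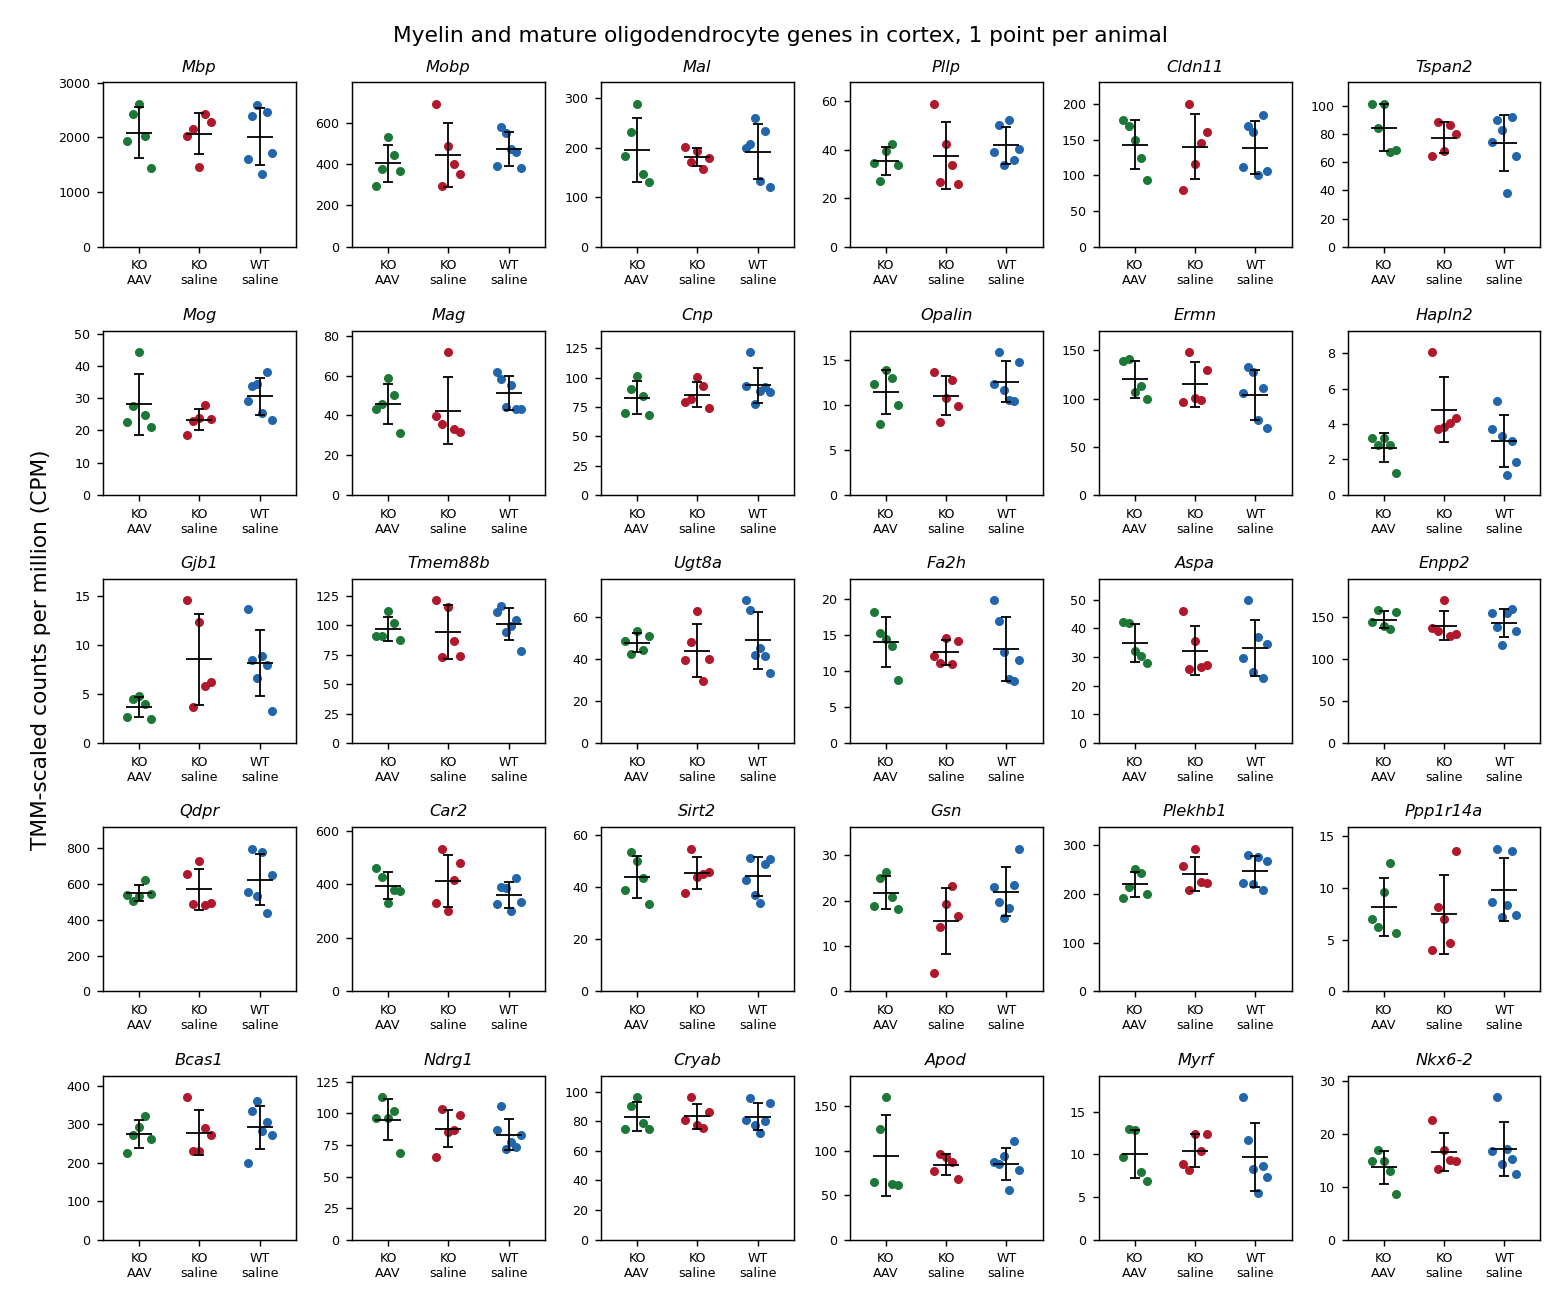
Level of each of the 30 members in each animal, in CPM on linear axes that start at 0, with KO AAV, KO saline and WT saline from left to right and 1 point per animal. The long line is the group mean and the bars are its SD; the 3 groups overlap for all 29 tested members, while for Hapln2 KO AAV lies below KO saline, and the KO AAV points for Gjb1 lie between 2.49 and 4.81 CPM.

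Counted over the 29 tested members, none passed an adjusted p of 0.05 in edgeR's quasi-likelihood test in any of the 3 comparisons. Of all 10363 tested genes 0.0482% passed for the genotype comparison, 0.0193% for the treatment comparison and 0.00965% for the AAV-to-WT comparison, so that a count of 0 among 29 genes is what the background share would give. At an unadjusted p under 0.05 the members numbered 0 for the genotype comparison (4.11% of all tested genes), 1 for the treatment comparison (2.49%) and 1 for the AAV-to-WT comparison (4.02%), and the 1 gene was Gjb1 each time. Without the 3 low-end libraries they numbered 5 for the genotype comparison (13.3% of all tested genes), 3 for the treatment comparison (6.05%) and 1 for the AAV-to-WT comparison (3.83%), none of them past the adjusted threshold. The 5 were Mag, Car2, Mobp, Pllp and Tmem88b, with log2 changes of -0.58, 0.36, -0.44, -0.46 and -0.37. The 3 were Mag (0.47), Tmem88b (0.31) and Car2 (-0.27), Gjb1 not among them, and the treatment comparison shares its KO saline libraries with the genotype comparison. For 0 of the 29 tested members did the groups not overlap in any comparison, against 0.396%, 0.502% and 0.318% of all tested genes in the same order of comparisons.

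The median log2 change of the tested members was -0.06 for the genotype comparison, 0.04 for the treatment comparison and -0.02 for the AAV-to-WT comparison, where all tested genes had medians of 0.00, -0.01 and -0.01. Values above 0 were found for 10, 17 and 13 of the 29 members, against 50.9%, 47.6% and 49.0% of all tested genes. Without the 3 low-end libraries the members' medians were -0.19, 0.06 and -0.06, in a setting chosen after seeing the data. All tested genes had medians of -0.01, 0.00 and 0.00 there, and KO saline kept replicates 2, 4 and 5 alone. The 95% interval lay within a 1.5-fold change either way for 22, 21 and 22 members, against 55.2%, 53.7% and 54.2% of all tested genes. It lay within a 2-fold change for 27, 27 and 28 members, against 91.2%, 91.4% and 92.4% of all tested genes. These shares were not tested, and changes of a smaller size remained possible for most genes. The plot of fitted changes shows these intervals gene by gene.

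**Figure D2:**
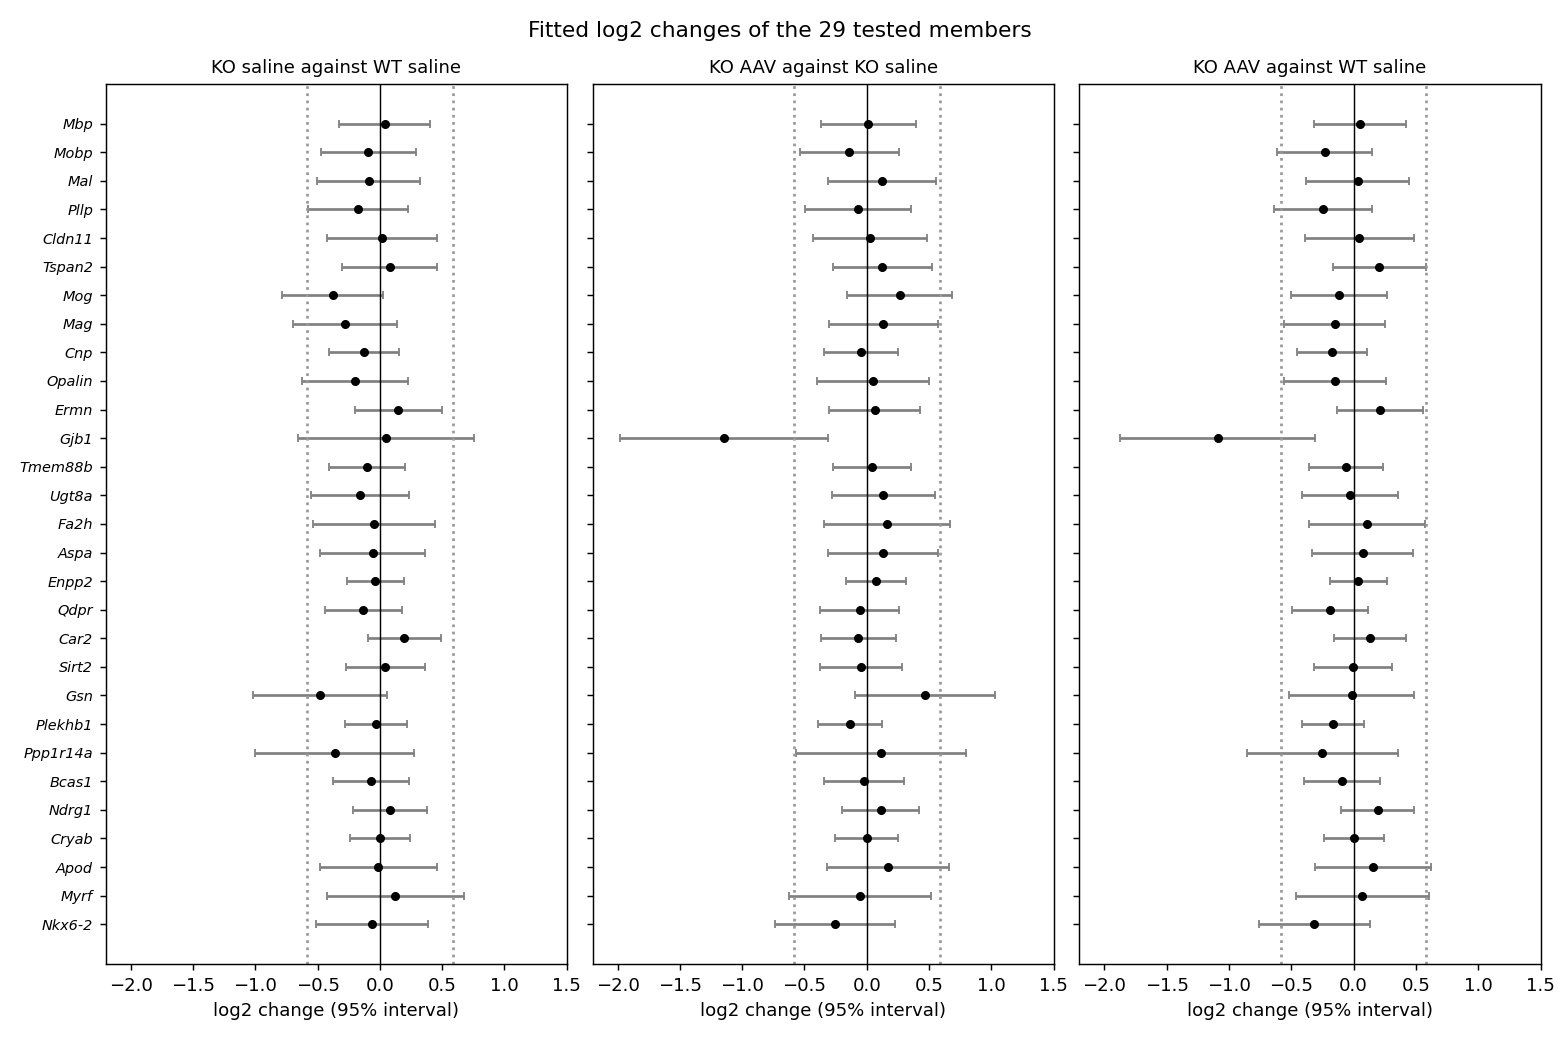
Fitted log2 change (points) with its 95% interval (bars) of the 29 tested members, ordered by role, with the genotype, treatment and AAV-to-WT comparisons from left to right; positive values mean higher in the first group of each comparison. The solid line is 0 and the dotted lines mark a 1.5-fold change; all 29 intervals cross 0 in the genotype panel, and 28 cross it in each of the other panels, where Gjb1 is the exception, at -1.14 and -1.09.

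The compact myelin proteins included the most abundant member. Mbp, which binds and compacts the cytoplasmic faces of the membrane, had 1928, 2429, 2616, 2030.1 and 1433 CPM in the KO AAV libraries, against 2017, 2149, 1467, 2431 and 2285 CPM in the KO saline libraries. In WT saline cortex Mbp had a lowest value of 1329, a median of 2046 and a highest value of 2601 CPM. The 3 groups overlapped across almost their whole range, and the fitted log2 change of Mbp was 0.04 (95% interval -0.33 to 0.41) for the genotype comparison, 0.01 (-0.37 to 0.40) for the treatment comparison and 0.05 (-0.32 to 0.42) for the AAV-to-WT comparison.

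Mobp, a small basic protein of compact myelin, had 295, 379, 534, 445 and 368 CPM in the KO AAV libraries, 694, 296, 486, 399 and 352 CPM in the KO saline libraries, and 383, 468 and 583 CPM as the lowest, median and highest WT saline values. KO saline held both a high library, replicate 1, and a low one, replicate 2. Mal, a proteolipid of myelin rafts, averaged 196 ± 64.6 CPM in KO AAV, 180.1 ± 18.0 CPM in KO saline and 192 ± 55.2 CPM in WT saline (SD). Pllp, the related plasmolipin, averaged 35.4 ± 5.86, 37.5 ± 13.7 and 41.8 ± 7.63 CPM in KO AAV, KO saline and WT saline. Cldn11, which forms the tight junctions between myelin layers, averaged 143 ± 34.3 CPM in KO AAV, 140.0 ± 45.7 CPM in KO saline and 139 ± 36.9 CPM in WT saline. Tspan2, a tetraspanin of the myelin membrane, averaged 84.8 ± 16.8, 77.7 ± 11 and 73.7 ± 20.2 CPM in KO AAV, KO saline and WT saline. The log2 changes of these 6 genes lay between -0.17 and 0.08 for the genotype comparison, between -0.14 and 0.13 for the treatment comparison and between -0.24 and 0.21 for the AAV-to-WT comparison, and none passed the test.

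The next group holds proteins of the outer surface, the axon-facing layer and the uncompacted channels of myelin, among them Mog, Mag and Gjb1, whose unadjusted p were among the lowest of the members. Mog, an immunoglobulin-like protein of the outermost myelin surface, had 18.6, 23.0, 23.9, 27.8 and 23.5 CPM in KO saline against 23.1, 31.5 and 38.1 CPM as the lowest, median and highest WT saline values. KO AAV libraries had 22.5, 27.7, 44.3, 24.8 and 21.2 CPM, of which replicate 3 stood above every other library. The log2 change of Mog was -0.38 (SE 0.19) for the genotype comparison, the lowest unadjusted p among the members there, but the adjusted p was 0.994 in edgeR's quasi-likelihood test. Mag, a sialic acid-binding protein that faces the axon, had 39.5, 35.6, 71.8, 33.0 and 31.5 CPM in KO saline against 43.0, 49.8 and 62.0 CPM as the lowest, median and highest WT saline values. KO saline replicate 3 was the highest of all libraries for Mag and the other 4 KO saline libraries were below every WT saline library. KO AAV libraries had 43.4, 45.8, 58.7, 50.2 and 31.1 CPM of Mag. The log2 change of Mag was -0.28 (SE 0.20) for the genotype comparison, and -0.58 with an adjusted p of 0.219 without the 3 low-end libraries.

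Gjb1 encodes connexin 32, a gap junction protein of oligodendrocytes and Schwann cells, and had the lowest unadjusted p of the members in both comparisons of KO AAV. It had 2.68, 4.52, 4.81, 3.95 and 2.49 CPM in the KO AAV libraries against 14.5, 3.71, 12.4, 5.79 and 6.18 CPM in the KO saline libraries, and 3.23, 8.23 and 13.6 CPM as the lowest, median and highest WT saline values. All KO AAV libraries were below 4 of the 5 KO saline and 5 of the 6 WT saline libraries, and the groups overlapped through 1 library of each. The log2 change was -1.14 (SE 0.40) for the treatment comparison, with an unadjusted p of 0.00955 and an adjusted p of 1.00, and -1.09 (SE 0.38) for the AAV-to-WT comparison, with an unadjusted p of 0.00842 and an adjusted p of 0.881, in edgeR's quasi-likelihood test. The genotype comparison gave 0.05 (SE 0.34). These levels rest on 33 counts over the KO AAV libraries, 59 over KO saline and 86 over WT saline. Without the 3 low-end libraries, KO saline replicates 1 and 3 among them, the log2 change for the treatment comparison was -0.50, with an unadjusted p of 0.261, and that for the AAV-to-WT comparison was -1.05.

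Hapln2, which links hyaluronan at the node of Ranvier, was the 1 member under the count filter. Fitted with no count filter, its log2 change for the treatment comparison was -0.76 (SE 0.46), with an unadjusted p of 0.0956 and an adjusted p of 0.836 in edgeR's quasi-likelihood test. It had 3.21, 2.82, 3.20, 2.82 and 1.25 CPM in the KO AAV libraries against 8.07, 3.71, 3.86, 4.05 and 4.32 CPM in the KO saline libraries, and the WT saline libraries had a lowest value of 1.11, a median of 3.20 and a highest value of 5.30 CPM. Every KO AAV library was below every KO saline library, while both groups overlapped WT saline. The two-sided exact permutation test of the treatment comparison gave p = 0.00794, which is the smallest that 5 against 5 libraries can give and is unadjusted over the 39 such tests made on 13 members. Those members are the 4 of lowest edgeR p in each comparison, the 5 most abundant and Hapln2, so the exact p of Mog and Gjb1 come from genes picked for a low p on the same libraries and are no separate evidence. Of these 39, the others with an exact p under 0.05 were Mog in the genotype comparison (p = 0.0346) and Gjb1 in the treatment (p = 0.0317) and AAV-to-WT (p = 0.0173) comparisons, where the groups overlapped. The libraries hold 24 counts of Hapln2 in KO AAV, 34 in KO saline and 33 in WT saline, 2 to 10 in each, and KO saline replicate 1 lies far above the others. Of all 24497 genes with a count, 0.42% had no overlap in the treatment comparison, and of the 30 members Hapln2 was the 1 such gene. In the genotype and AAV-to-WT comparisons 0 of the 30 members had no overlap, against 0.298% and 0.249% of those genes.

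The other genes of this group differed less. Cnp, an enzyme that keeps channels open in uncompacted myelin, averaged 82.9 ± 14 CPM in KO AAV, 85.5 ± 10.7 CPM in KO saline and 93.5 ± 15 CPM in WT saline (SD). Opalin, an oligodendrocyte membrane glycoprotein, averaged 11.4 ± 2.43, 11.1 ± 2.22 and 12.6 ± 2.26 CPM in KO AAV, KO saline and WT saline. Ermn, an actin-linked protein of the late myelinating cell, averaged 119.9 ± 19.1 CPM in KO AAV, 115 ± 23.1 CPM in KO saline and 104 ± 25.7 CPM in WT saline. Tmem88b averaged 96.5 ± 10.3, 94.1 ± 23.0 and 101 ± 13.6 CPM in KO AAV, KO saline and WT saline. None of the 7 tested genes of this group passed the test in any comparison, and their median log2 change was -0.13 for the genotype comparison, 0.05 for the treatment comparison and -0.15 for the AAV-to-WT comparison.

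The bases before the starts of Mog, Mag and Gjb1 are shown because they are 3 of the 4 genes given by library among the surface, axon-facing and channel proteins and because Myrf, the transcription factor that drives myelin genes, is itself a member. The sequences are the 250 bases before a RefSeq start in GRCm38.p6, read 5' to 3' on the gene's strand, and none of their bases lies in an annotated exon. Capitals mark letters known for binding by Myrf (CTGGCAC or CTGGTAC) or by Sox factors (AACAAT or ACAAAG), on either strand. The Mog stretch lies on the minus strand at chr17:37023399-37023648, Mag on the minus strand at chr7:30914923-30915172, and Gjb1 on the plus strand at chrX:101383482-101383731, the last along the gene of its 4 starts.
Mog: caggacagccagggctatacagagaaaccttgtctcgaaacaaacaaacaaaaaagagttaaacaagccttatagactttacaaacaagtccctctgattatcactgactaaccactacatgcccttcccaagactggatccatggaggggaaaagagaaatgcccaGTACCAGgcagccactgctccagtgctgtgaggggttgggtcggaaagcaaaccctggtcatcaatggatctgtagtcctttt
Mag: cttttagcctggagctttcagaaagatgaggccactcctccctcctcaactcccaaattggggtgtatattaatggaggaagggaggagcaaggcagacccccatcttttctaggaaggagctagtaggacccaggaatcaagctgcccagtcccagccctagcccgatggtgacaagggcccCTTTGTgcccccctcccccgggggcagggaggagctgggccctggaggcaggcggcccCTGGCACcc
Gjb1: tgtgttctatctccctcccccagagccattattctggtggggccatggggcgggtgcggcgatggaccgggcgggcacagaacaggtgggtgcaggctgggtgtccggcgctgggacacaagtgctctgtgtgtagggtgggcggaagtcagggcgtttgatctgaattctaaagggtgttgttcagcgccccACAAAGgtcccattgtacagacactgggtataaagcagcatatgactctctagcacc

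The Myrf letters began 83 bases before the start in Mog and 9 bases before the start used here in Mag, and the Gjb1 stretch held Sox letters alone. Among the other starts of Gjb1, the first along the gene also had Sox letters, and the windows of the remaining starts held neither set. RefSeq gives 3 starts for Mag: the same Myrf letters began 68 bases before another, and the window of the remaining start held none. Gsn, which had a lower p than Mag in the genotype and treatment comparisons, held neither set of letters in its 3 windows and is not shown. Over windows of 300 bases, which add 50 bases after the start, 22 of the 30 members had a RefSeq window. The Myrf letters occurred for 5 of these 22 (Cnp, Hapln2, Mag, Mog and Opalin), against 8.10% of 27025 genes, and the Sox letters for 11 of 22, against 29.96% of genes. A gene was counted if any of its windows matched, so genes with more windows had more chances. By window, the Myrf letters occurred in 6 of the members' 31, against 7.10% of 32851 windows. The Sox letters occurred in 13 of the 31, against 27.0%. The Mag windows with Myrf letters overlap. A match of letters is a description and not a bound site.

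The enzymes of myelin lipid and of oligodendrocyte metabolism showed no change that passed the test. Ugt8a, which makes galactosylceramide, averaged 48.0 ± 4.55 CPM in KO AAV, 44.1 ± 12.6 CPM in KO saline and 49.1 ± 13.6 CPM in WT saline (SD). Fa2h, which hydroxylates the fatty acids of these lipids, averaged 14.03 ± 3.45, 12.6 ± 1.72 and 13.1 ± 4.49 CPM in KO AAV, KO saline and WT saline. Aspa, which frees acetate from N-acetylaspartate, averaged 34.9 ± 6.66 CPM in KO AAV, 32.2 ± 8.61 CPM in KO saline and 33.2 ± 9.83 CPM in WT saline. Enpp2, the secreted lysophospholipase autotaxin, averaged 147 ± 10.1, 139 ± 17.4 and 143 ± 16.7 CPM in KO AAV, KO saline and WT saline, and Sirt2, a tubulin deacetylase, averaged 44.0 ± 8.12, 45.5 ± 6.07 and 44.2 ± 7.49 CPM.

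Qdpr, which regenerates tetrahydrobiopterin, had 535, 503, 529, 620.3 and 542 CPM in the KO AAV libraries, 653, 489, 726, 480.4 and 494 CPM in the KO saline libraries, and 436, 599 and 795 CPM as the lowest, median and highest WT saline values. The KO AAV libraries lay inside the ranges of both other groups. Car2, a carbonic anhydrase, had 461, 429, 331, 378 and 374 CPM in the KO AAV libraries, 331, 534, 301, 417 and 482 CPM in the KO saline libraries, and 299, 359.9 and 424 CPM as the lowest, median and highest WT saline values. KO saline replicates 2 and 5 were the highest of all libraries for Car2, whose log2 change for the genotype comparison was 0.20 (SE 0.14), or 0.36 with an adjusted p of 0.240 without the 3 low-end libraries. Over the 7 enzymes the log2 changes ran from -0.16 to 0.20 for the genotype comparison, from -0.07 to 0.16 for the treatment comparison and from -0.19 to 0.13 for the AAV-to-WT comparison.

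Among the cytoskeletal and signalling members, Gsn, the actin-severing gelsolin, had 18.7, 24.9, 26.2, 20.9 and 18.1 CPM in the KO AAV libraries against 4.03, 14.1, 19.3, 23.2 and 16.7 CPM in the KO saline libraries, and 16.05, 21.3 and 31.4 CPM as the lowest, median and highest WT saline values. KO saline replicate 1 was the lowest library by a wide margin. The log2 change of Gsn was -0.48 (SE 0.26) for the genotype comparison and 0.46 (SE 0.27) for the treatment comparison, and -0.26 and 0.24 without that library. Both comparisons share the KO saline libraries, and neither passed the test.

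Plekhb1, a pleckstrin-homology protein, had 193, 215, 251, 242 and 199 CPM in the KO AAV libraries, 258, 208, 293, 226 and 222 CPM in the KO saline libraries, and 209, 245 and 281 CPM as the lowest, median and highest WT saline values. Bcas1, which marks myelinating cells, had 225, 271, 294, 321 and 262 CPM in the KO AAV libraries, 371, 229.7, 232, 289 and 272 CPM in the KO saline libraries, and 198, 295 and 359.7 CPM as the lowest, median and highest WT saline values. The groups overlapped for both genes. Ndrg1, a myelin-associated protein of the N-myc downstream family, had 96.4, 113, 96.1, 102 and 68.5 CPM in the KO AAV libraries, 65.3, 104, 84.9, 86.8 and 98.8 CPM in the KO saline libraries, and 71.9, 80.3 and 106 CPM as the lowest, median and highest WT saline values. Its log2 change was 0.19 (SE 0.14) for the AAV-to-WT comparison, and that of Plekhb1 was -0.16 (SE 0.12). Ppp1r14a, an inhibitor of myosin phosphatase, averaged 8.16 ± 2.82 CPM in KO AAV, 7.47 ± 3.81 CPM in KO saline and 9.81 ± 3.02 CPM in WT saline (SD).

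Neither of the stress and transport proteins passed the test. Cryab, a small heat shock protein, averaged 83.0 ± 9.69 CPM in KO AAV, 83.2 ± 8.50 CPM in KO saline and 82.9 ± 9.03 CPM in WT saline (SD), and its 95% interval was -0.25 to 0.25 on the log2 scale for the treatment comparison. Apod, a secreted lipid-binding lipocalin, averaged 94.5 ± 45.4, 84.2 ± 11.6 and 85.0 ± 18.2 CPM in KO AAV, KO saline and WT saline. Its log2 change was 0.17 for the treatment comparison. The Apod medians ran the other way, at 64.3 CPM in KO AAV, 86.8 CPM in KO saline and 85.8 CPM in WT saline. KO AAV libraries ran from 61.7 to 160 CPM of Apod. Of the transcription factors, Myrf averaged 10.04 ± 2.80 CPM in KO AAV, 10.4 ± 1.94 CPM in KO saline and 9.70 ± 3.98 CPM in WT saline. Nkx6-2, a homeobox factor of the oligodendrocyte lineage, had 14.99, 16.9, 14.95, 12.97 and 8.72 CPM in the KO AAV libraries, 22.6, 13.3, 17.0, 15.05 and 14.8 CPM in the KO saline libraries, and 12.5, 16.04 and 27.0 CPM as the lowest, median and highest WT saline values. KO AAV replicate 5 was the lowest library for Nkx6-2, and its log2 change was -0.25 (SE 0.23) for the treatment comparison and -0.32 (SE 0.21) for the AAV-to-WT comparison.

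The spread between animals of the same group is given beside that from counting error. For Mbp the coefficient of variation (CV) within groups was 22.6%, against 1.74% from counting alone. The observed CV was above the counting CV for 28 of the 29 tested members, against 86.6% of the 10333 tested genes with a count in every library, with Opalin (19.6% observed, 23.0% from counting) as the exception. For 21 members it was over 1.5 times the counting CV, against 44.0% of those genes, a share that also depends on abundance. Enpp2 and Cryab varied least, at 10.6% and 10.9%, and Gjb1 varied most, at 49.2% with 32.7% from counting. In edgeR's own estimate, 16 of 29 members had a dispersion above the trend for genes of their abundance, against 33.5% of all tested genes; these shares were not tested.

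**Figure D3:**
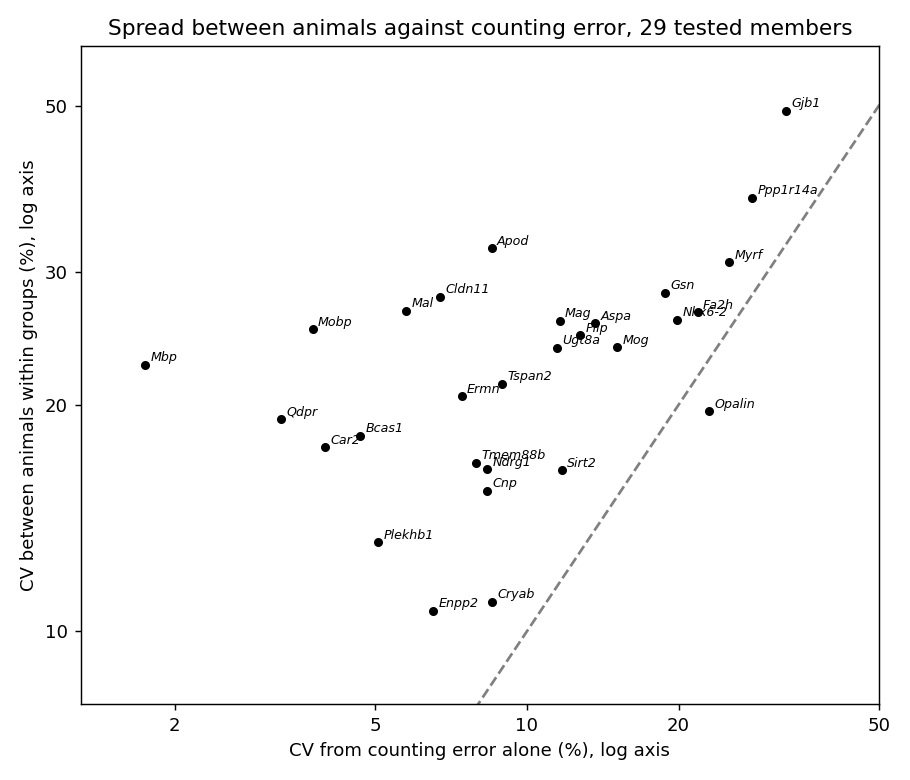
Coefficient of variation between animals within groups against that from counting error alone, both in percent on log axes, for the 29 tested members; the dashed line marks equality. Opalin is the 1 gene below the line, and Mbp lies farthest above it, at 22.6% against 1.74%.

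The members did not vary as 1 block. Over the 16 libraries, with group means removed, the mean pairwise Pearson r among the 29 members was 0.179, against 0.000 among the other genes at least as abundant, and 125 of 406 pairs were negative. These libraries share their depth scaling and their position on the first component, so the values are descriptions. Tmem88b and Gjb1 varied most alike (r = 0.89), followed by Qdpr and Plekhb1 (r = 0.85), while Car2 and Plekhb1 ran opposite (r = -0.75). With the first component removed the mean r was 0.259 with 75 negative pairs, and that of Car2 with Plekhb1 was -0.23.

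Members lay at both ends of the first component, which was built without them. Car2 (r = 0.93), Cldn11 (r = 0.83), Tspan2 (r = 0.76), Mbp (r = 0.71) and Ermn (r = 0.66) had their lower levels in the low-end libraries. Pllp (r = -0.81), Qdpr (r = -0.79), Plekhb1 (r = -0.74), Tmem88b (r = -0.61), Gjb1 (r = -0.59), Mag (r = -0.59) and Mobp (r = -0.50) tended to have higher levels there. This did not hold in each low-end library. Tmem88b had 99.7 CPM in WT saline replicate 4, against a WT saline mean of 100.8 CPM. Mag had 39.5 CPM in KO saline replicate 1, against a KO saline mean of 42.3 CPM. Without the 3 low-end libraries the values were 0.88 for Car2, 0.83 for Cldn11 and -0.71 for Pllp, over 13 libraries. Of all tested genes 46.4% had an r of at least 0.5 in size, so following the component was not particular to these 12 of 29 members.

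The direction in which genes followed the component went with the base content of their 3' ends. Across the 10354 tested genes with a transcript sequence, r with the component was itself correlated with the GC content of the last 500 bases of the transcript (r = -0.39 across genes, which are not independent replicates) and hardly with transcript length (r = 0.09). The 5 members that followed the component upward had a median GC content of 34.2% there, against 46.0% for the 7 that ran opposite, 46.0% for all 29 members and 42.6% for all tested genes. Mbp, with 47.4%, was the exception among the 5, and 3 members of low GC content ran opposite at an r under 0.5 in size before rounding: Ugt8a (33.0%, r = -0.33), Enpp2 (36.8%, r = -0.48) and Aspa (37.8%, r = -0.50). The part of base content in these differences was not tested.

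**Figure D4:**
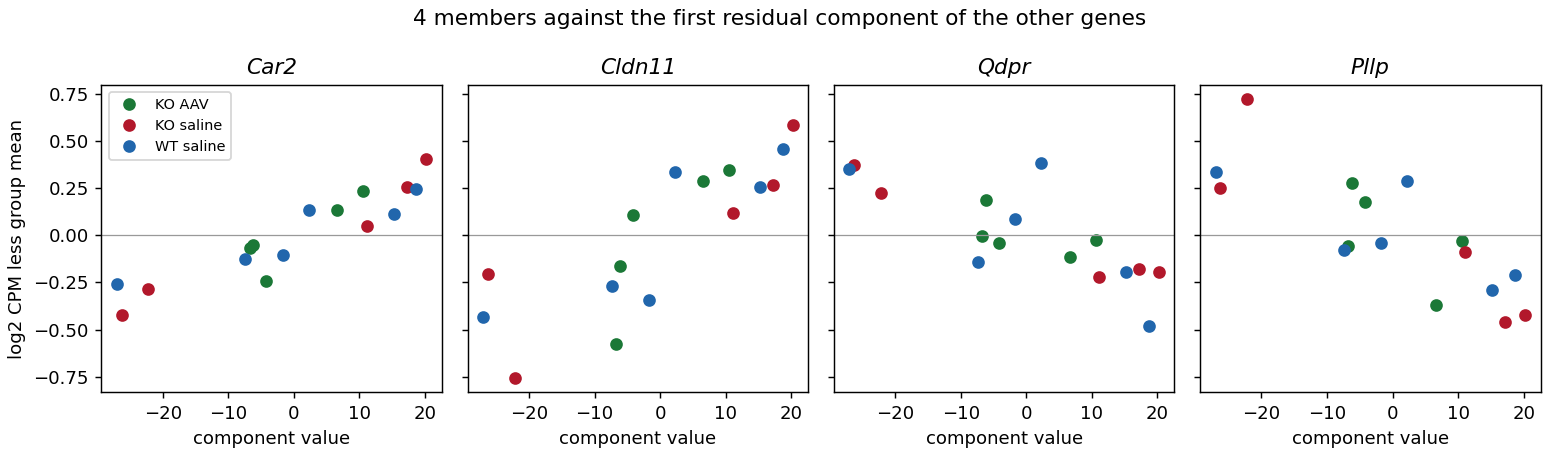
Level of 4 members in each library, as log2 CPM less the group mean, against the library's value on the first residual component of the other genes, for KO AAV (green), KO saline (red) and WT saline (blue). Car2 (r = 0.93) and Cldn11 (r = 0.83) rise along the component, and Qdpr (r = -0.79) and Pllp (r = -0.81) fall along it.

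**Figure D5:**
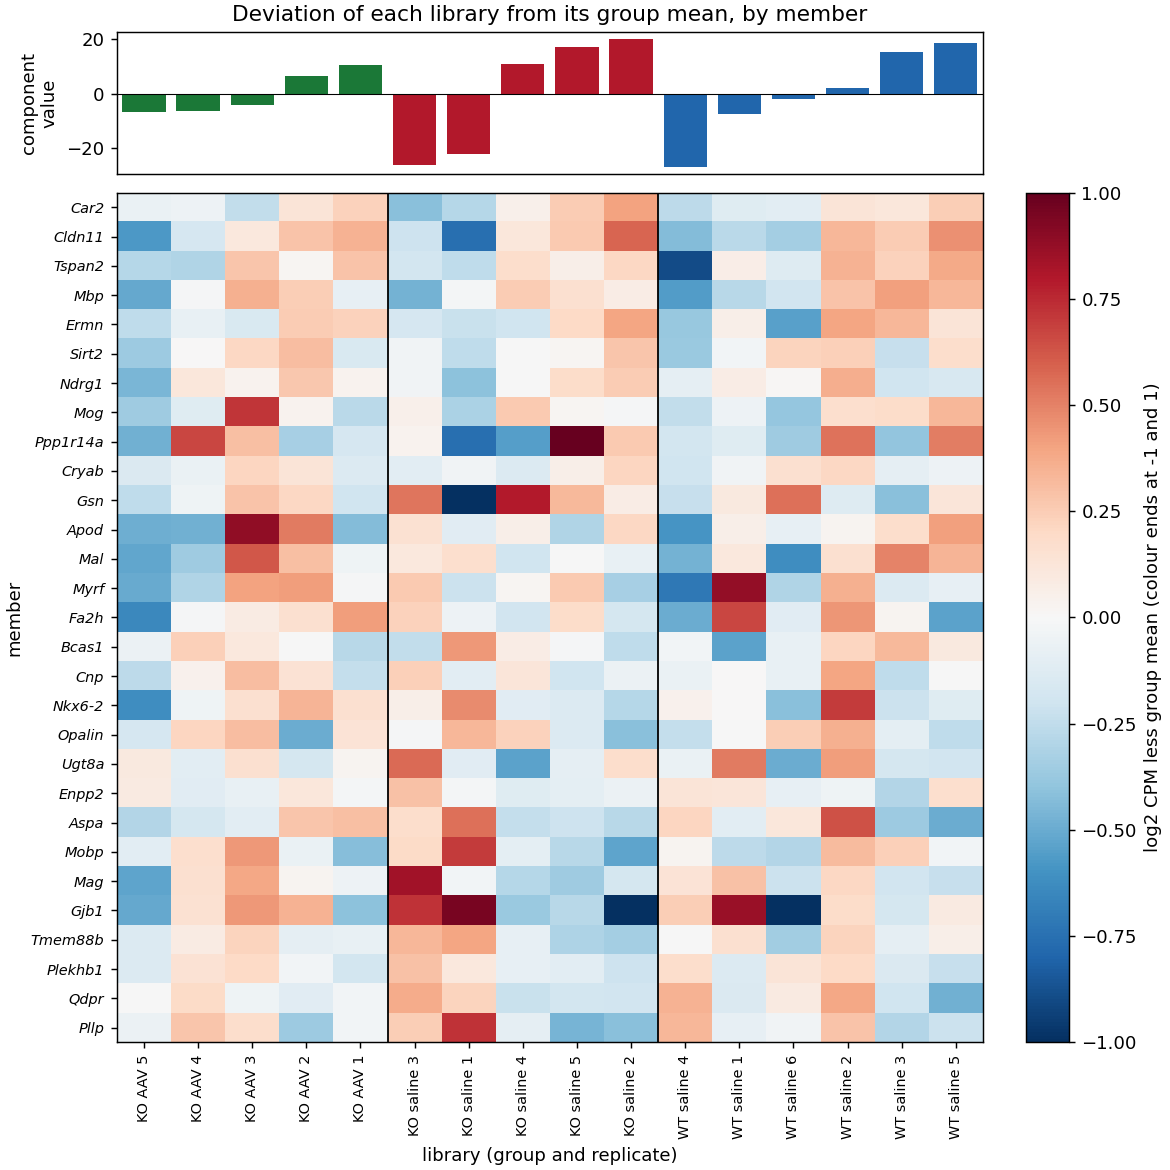
Deviation of each library from its group mean in log2 CPM (colour, ending at -1 and 1) for the 29 tested members, ordered by their r with the first residual component, with KO AAV, KO saline and WT saline libraries from left to right and in order of the component within each group. The bars on top are the component values, which run from -27.0 to 20.2. Members at the top and bottom of the map tend to change colour in opposite directions along KO saline and WT saline. This is not clear in KO AAV, which spans a shorter part of the component, from -6.76 to 10.6. There Mag and Gjb1, near the bottom of the map, were lowest in replicate 5, the library at the low end of that group.

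Single libraries stood out across members. KO saline replicate 1 was the highest of all 16 libraries for 5 members, Mobp, Gjb1 and Pllp among them, and the lowest for 5 others, Gsn and Cldn11 among them. That library also had the highest share of counts from mitochondrially encoded genes, 29.8%, with KO saline replicate 3 next at 26.2%. Its TMM factor, 0.903, was the lowest of all libraries. The part of these library properties in its member values was not tested. WT saline replicate 2 was the highest for 6 members and WT saline replicate 4 the lowest for 6, and KO AAV replicate 5 was the lowest for 5. The mean of the members' log2 levels, each set against its mean over all libraries, ran from -0.30 in KO AAV replicate 5 to 0.32 in WT saline replicate 2, and the groups overlapped.

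Outside the members, the tested genes that varied most like the members' mean level, with group means removed over 16 libraries, were Ppp1r7 (r = 0.90), Phf23 (r = 0.83), Pde1b and Prr5l (both r = 0.79), Pard3 (r = 0.79), Slk (r = 0.79), Cdc7 (r = 0.79) and Kcnab1 (r = 0.78). Of these Prr5l was in the list of 40 other oligodendrocyte and myelin genes. Over the 34 tested genes of that list, 30 had an r above 0 with the members' mean, with a median r of 0.37, against 0.01 for all other tested genes.

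The rest of the oligodendrocyte programme likewise held no gene that passed the test in any of the 3 comparisons. Over the 34 tested other oligodendrocyte genes the median log2 change was -0.04 for the genotype comparison, 0.03 for the treatment comparison and -0.10 for the AAV-to-WT comparison. Anln, an actin-binding septin partner, had 23.2, 22.6 and 15.7 CPM on average in KO AAV, KO saline and WT saline, with an adjusted p of 0.881 for the AAV-to-WT comparison in edgeR's test. The 16 tested genes of sphingolipid and galactolipid metabolism, many of them lysosomal, had medians of 0.07, 0.01 and 0.08 in the same order of comparisons. The 13 tested genes of the lineage and its precursors had medians of 0.04, 0.07 and 0.10, and Olig1, a lineage factor, averaged 239 CPM in KO AAV, 190.3 CPM in KO saline and 181 CPM in WT saline with an adjusted p of 0.881 for the AAV-to-WT comparison in edgeR's test. The 11 tested genes of newly formed oligodendrocytes had medians of 0.00, 0.00 and 0.02.

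A list of 9 tested genes described in disease-associated oligodendrocytes had larger medians, of 0.13 for the genotype comparison and -0.23 for the treatment comparison, comparisons that share the KO saline libraries. In the first 8 of the 9 had values above 0, and in the second 8 had values below 0, and none passed the test. C4b, a complement component, averaged 4.10 CPM in KO AAV, 8.58 CPM in KO saline and 4.48 CPM in WT saline, and B2m averaged 181 CPM in KO saline against 145 CPM in WT saline. These genes are also made by activated astrocytes and microglia, whose markers moved beside them: Gfap averaged 30.7 ± 3.49 CPM in KO AAV, 71.0 ± 15.55 CPM in KO saline and 21.3 ± 6.17 CPM in WT saline, and it rose in the genotype comparison and fell in the treatment comparison. The summed level of 15 microglial markers was 641 ± 40.7 CPM in KO AAV (599.7 to 709), 834 ± 119 CPM in KO saline (741 to 1009) and 606 ± 54.4 CPM in WT saline (529 to 675), with none of the 15 at 0 in a group. Of these markers 13 of 15 had values above 0 in the genotype comparison, of which Clec7a, Ctss and Lyz2 rose at an adjusted p under 0.05 in edgeR's test, and 2 of 15 in the treatment comparison, where Clec7a fell. Of 12 astrocyte markers 10 had values above 0 in the genotype comparison and 2 in the treatment comparison, and their summed level was 9921 ± 661 CPM in KO AAV (9262 to 10838), 10485 ± 1006 CPM in KO saline (9701 to 12088) and 9882 ± 645 CPM in WT saline (9445 to 11130). The part of these cells in the oligodendrocyte values was not tested. Markers of thalamus, hippocampus and striatum, regions next to the cortex, summed to 501 ± 182 CPM in KO AAV, 506 ± 73.2 CPM in KO saline and 524 ± 248 CPM in WT saline, and none of the 10 tested passed in any comparison. Their median log2 change was -0.25 for the genotype comparison, larger in size than the members' -0.06. It was 0.07 for the treatment comparison and -0.02 for the AAV-to-WT comparison. In the genotype comparison these markers split in direction, with 4 above 0 and 6 below. The markers of lowest p there, Prkcd (0.45) and Zic1 (0.38), were among those above 0. The part of these regions in the members' values was not tested.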

How the data were processed

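Cortex RNA of 16 mice was made into QuantSeq 3' libraries with molecular identifiers for removing PCR duplicates, per the labels. The submitters' processing notes name the build GRCm38.p6, the aligner STAR, edgeR 3.40.2 under R 4.2, and for quality checks MultiQC 1.0 and FastQC 0.11.5. Which program counted reads, with which strand setting and annotation, is not stated there. The authors deposited counts per gene, which have at most 2 significant digits, so values of 100 or more are rounded by up to 5%. The authors also deposited a CPM signal table, library totals, a normalization factor (a ratio) and RNA integrity numbers (a score); sex and treatment time come from the deposited annotation.

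Counts were filtered with filterByExpr (10363 genes kept), scaled by TMM and entered into a single quasi-likelihood model of all 16 libraries with group as factor (R 4.3.3, edgeR 4.0.16), with Benjamini-Hochberg adjustment over all tested genes and a threshold of 0.05. limma 3.58.1 and DESeq2 1.42.0 served alternatives, with a pseudocount of 0.25 on deposited CPM. For single members, mean CPM differences were given two-sided exact permutation p-values (SciPy 1.17.1). SD are over animals. The first component used tested non-members of mean CPM 20 or more. GC content came from GENCODE M21 transcripts and promoters from RefSeq. The scripts were tested on simulated data. No 2 libraries of a group agreed within sampling noise (mean chi-square per gene 2.59 to 11.2 over 35 pairs). Total counts limit precision, and intervals cover the spread between animals; a floor of 3 counts stands for a 0 and reflects counting alone.

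Members and lists were chosen with earlier results of these data known. Named are Grn, all members, with values per library for the 4 of lowest p per comparison, the 5 most abundant and Hapln2, some listed genes of lowest p or past the test, and the 8 genes most like the members.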

Additional observations from a re-analysis of the deposited data

Results flagged for a closer look

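Among 90 sets of 1 member in 1 group, 7 had a library set apart by Dixon's criterion, where chance gives about 1 in 20. Mog had 44.3 CPM in KO AAV replicate 3, against 21.2 to 27.7 CPM in the other KO AAV libraries. Hapln2 had 1.25 CPM in KO AAV replicate 5, from 2 counts, against 2.82 to 3.21 CPM in the others, and 8.07 CPM in KO saline replicate 1, from 10 counts, against 3.71 to 4.32 CPM in the others. KO saline replicate 3 had 71.8 CPM of Mag, against 31.5 to 39.5 CPM in the other KO saline libraries, and 169.8 CPM of Enpp2, against 127 to 137 CPM. WT saline replicate 2 had 122 CPM of Cnp, against 77.5 to 92.9 CPM in the other WT saline libraries, and 27.0 CPM of Nkx6-2, against 12.5 to 17.2 CPM. KO saline replicates 1 and 3 are also at the low end of the first component; its part in these values was not tested.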

How the results depend on the processing

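In each of 31 settings of each comparison 0 members passed the test. The lowest adjusted p of a member over those settings was 0.219 for KO saline against WT saline (Mag, without the 3 low-end libraries), 0.614 for KO AAV against KO saline and 0.138 for KO AAV against WT saline (both Gjb1, with the first component as a term). The members' median log2 change ran from -0.19 to -0.02, from -0.02 to 0.11 and from -0.11 to 0.03 in that order, and the log2 changes of the 4 members of lowest p kept their sign in every setting in which they were tested, Gjb1 for KO AAV against KO saline running from -1.32 to -0.50. The number of members above 0 ran from 5 to 13, 13 to 24 and 8 to 16 of 28 to 30 tested. The 28 were for KO AAV against KO saline with only the 2 groups compared in the fit, where Gjb1 was not tested. Fits with the component as a term, or without its low-end libraries, were chosen after seeing the data.

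Counts over all genes moved more. KO saline against WT saline called 5 genes as reported, 16 with no count filter and 9 without the low-end libraries. KO AAV against KO saline called 2 as reported, 4 with no count filter, 1 at a mean CPM of at least 5, 0 with limma on deposited CPM, 1 without both libraries of RNA integrity 8 and 4 with the component as a term. KO AAV against WT saline called 1 as reported, 2 with no count filter and 40 with the component as a term. Leaving out 1 library at a time gave 4 to 5, 1 to 2 and 1 genes in the 3 comparisons; KO AAV against KO saline called 1 when the library left out was KO saline replicate 4 or any of KO AAV replicates 1, 3 and 4. With the replicate number as a block, 3, 1 and 1 genes were called. The labels do not say whether that number marks a litter or batch. Replicates 1, 2 and 3 were male and replicate 5 female in every group, and replicates 1 and 2 were all 12.2 months old. Of 15 same-numbered pairs, 5 had deviations correlated over 0.1 (r from -0.43 to 0.44). Those correlations cannot decide the question, because the first component holds much of the variance within groups. In these libraries depth limits Hapln2 and Gjb1 most, with 2 to 10 and 4 to 22 counts each.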
